A study of Mus musculus with 14 samples.

Results

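The genes examined here are the cytochrome P450s and the other detoxifying enzyme families of mouse tumours, that is every gene whose platform symbol opens with Cyp and a digit (apart from Cyp51), with Gst and a lower-case letter, with Ugt, Fmo, Ces or Cbr and a digit, or with Aldh, Sult or Ephx. Only probesets assigned to a single gene were used. Where a gene had more than 1, the probeset whose mean across the 14 arrays was highest stands for it. This gave 136 genes of the 12393 that the array represents in this way. The rule used no difference between the groups. The match by symbol also takes in enzymes with roles outside detoxification, such as Aldh18a1 in proline synthesis. A further 10 probesets that match several genes of these families were not used, among them a probeset shared by Cyp2a4 and Cyp2a5 and those of the Ugt1a cluster.

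The study profiled 7 tumours from mice titled Hif 2alpha Knockdown, whose genotype is given as Hif2alpha deficient, and 7 tumours from control mice. Both groups had a mixed 129 SvJ/C57Bl6 background. HIF-2alpha, the product of Epas1, is an oxygen-regulated transcription factor that binds DNA together with ARNT. The age of the mice, the organ, the alleles that gave rise to the tumours, and how and in which cells Hif2alpha was lost are not given in the labels. From general knowledge of this work, the tumours are of the lung.

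Levels are the authors' GCRMA values on a log2 scale, and a level of 4 was taken as the floor below which a value is only a bound. The Epas1 probeset lay between 4.88 and 6.38 in deficient arrays and between 4.65 and 6.50 in controls (difference -0.19, SE 0.30, limma adjusted p = 0.807), so it does not separate the groups, and whether it lies in the lost part is not known. All 11 alveolar type II markers on the array passed the filter on low values, and none of the 7 hepatocyte markers did. Ttr, Fgb, Ahsg and Cps1 of the liver were never above the floor. Alb, which encodes serum albumin, was above it in deficient 2, 3 and 6, at 5.96, 7.78 and 5.26, and in no control. Apoa1, an apolipoprotein of liver and gut, was above it in the same deficient arrays, at 8.46, 8.44 and 5.86, and in controls 3 and 4, at 5.83 and 6.75. Apoa2 was at 4.36 in deficient 3 and 4.33 in deficient 6 and under the floor elsewhere. Deficient 3 was the lowest of all 14 arrays in 34.6% of the tested members, beside 14% of all tested probesets. For deficient 6 these shares were 5.77% and 4.77%, and for deficient 2 they were 1.92% and 4.31%. The part of such RNA in the differences was not tested. Each array description opens with a number whose meaning no source gives. Read without its last digit, that number is shared within sets of arrays, which are called array sets here. Deficient 1 and 5 form one set, deficient 3 and 6 another, deficient 4 and 7 another, and deficient 2 stands alone. Controls 1 and 4 form one set and the other 5 controls another. The design text counts 7 for each group, which can be read as mice or as samples, and whether a set marks 1 animal is not known. If it does, fewer than 14 independent samples were measured, and the p-values describe the spread between arrays only.

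Detoxification runs in steps. Cytochrome P450s, haem enzymes of the endoplasmic reticulum or mitochondria, and flavin monooxygenases insert oxygen into foreign chemicals, fatty acids and steroids. Esterases, epoxide hydrolases, carbonyl reductases and aldehyde dehydrogenases then act on the esters and reactive groups that are present or formed. Glutathione S-transferases, UDP-glucuronosyltransferases and sulfotransferases attach polar groups, so that the product can be exported. The liver is the main site, but the lung epithelium, above all its club cells, and lung vessels carry a set of their own.

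Of the 136 members 52 passed the filter, which required a level above 4 in at least 7 of the 14 arrays, and the other 84 were not tested. The tested members were 15 of 18 Gst genes, 11 of 17 Aldh genes, 7 of 39 genes of Cyp families 1 to 3, 4 of 10 of Cyp family 4, 3 of the 13 other Cyp genes, 4 of 4 Cbr genes, 3 of 9 Ces genes, 3 of 4 Fmo genes, 1 of 2 Ephx genes, 1 of 11 Sult genes and 0 of 9 Ugt genes. There were 65 members that exceeded the floor in no array. Among them were P450s best known from liver, such as Cyp3a11, Cyp2c29 and Cyp1a2, the bile acid enzymes Cyp7a1 and Cyp8b1, and the steroid-making enzymes Cyp11a1 and Cyp17a1. Cyp1a1, the classical target of the aryl hydrocarbon receptor, was one of them, with at most 3.77 in deficient arrays and at most 3.48 in controls.

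After adjustment over all probesets tested, 0 of the 52 members passed (limma, Benjamini-Hochberg, adjusted p under 0.05), where 0.0394% of the 12701 tested probesets did. The smallest adjusted p among members was 0.126. At an unadjusted p under 0.05, 8 members were lower in deficient tumours, or 15.4% of those tested, beside 6.57% of all tested probesets. In the other direction 0 members had an unadjusted p under 0.05, beside 8.09% of all tested probesets. The 8 were the carboxylesterases Ces1e and Ces1d, the aldehyde dehydrogenases Aldh3b1, Aldh1a1 and Aldh2, and the P450s Cyp2s1, Cyp2b10 and Cyp4b1. An exact two-sided permutation test, run over every division of the same arrays into groups of 7, also gave 8 members an unadjusted p under 0.05. It was not run over all tested probesets, so no background share stands beside that count. In that exact test Cbr2 (p = 0.0332) stood in place of Cyp4b1 (p = 0.0723).

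Over the 52 tested members 36 lay lower and 16 higher in deficient tumours, so 69.2% were lower, beside 47.4% of all tested probesets. Their median log2 difference was -0.20, beside 0.02 for all tested probesets. Differences were within 0.5 log2 units of 0 for 34 members, below -0.5 for 17 and above 0.5 for 1, Cyp1b1. With each array centred on its median, 55.8% of members lay lower beside 35.4% of all tested probesets. That scaling left 5 lower and 1 higher at an unadjusted p under 0.05, beside 4.22% and 13.8% of all tested probesets. With limma's array weights, 11 members passed the adjusted threshold, 10 lower and Gstt3 higher, in a setting that called 15% of all tested probesets. With the array set as a random block (correlation 0.3492), 6 of the 8 calls at an unadjusted p under 0.05 were lost. The 2 that stayed were Ces1e and Aldh3b1, or 3.85% of members, beside 2.23% of all tested probesets lower in that fit. It gave 0 higher members, beside 2.5% of all tested probesets, and a smallest adjusted p among members of 0.989. Without deficient 3 and 6, 6 members were lower and 0 higher at an unadjusted p under 0.05, beside 5.89% and 7.82% of all tested probesets, and 71.2% of members lay lower, beside 49.2% of all tested probesets. There were 0 members whose 2 groups did not overlap in either direction, beside 0.323% of all tested probesets with the deficient arrays wholly above and 0.173% with them wholly below.

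**Figure D1:**
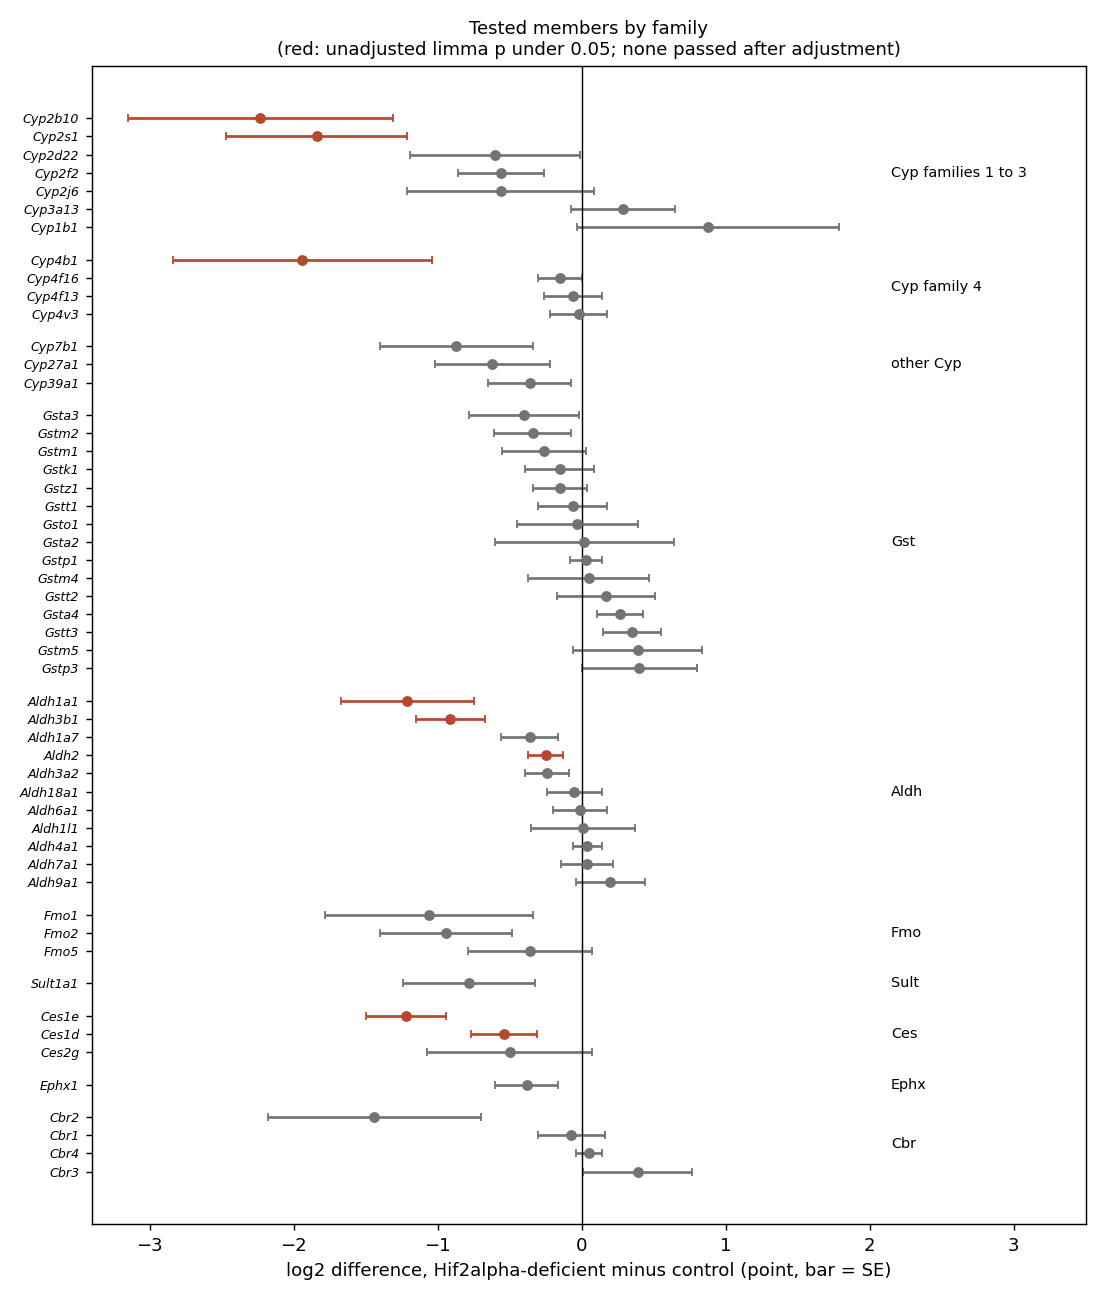
Log2 difference (deficient minus control) of each tested member by family, on the x axis, with its standard error as a bar. The 8 members in red had an unadjusted p under 0.05, all of them lower in deficient tumours, while the Gst genes lie on both sides of 0, between -0.40 and 0.40.

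The members with the smallest p-values are set out by their promoters first, since HIF-2alpha with ARNT binds a short DNA core and the aryl hydrocarbon receptor with ARNT binds a related one. The 4 stretches below are those of the 2 members with the smallest p, Ces1e and Aldh3b1, and of the 2 P450s of family 2 among the 8. Each runs from 250 bases before to 50 bases after a transcript start (RefSeq, build GRCm38.p6), 5′ to 3′ on the strand of the gene, and capitals mark the letters ACGTG or GCGTG on either strand, which do not overlap here. They lie at chr8:93229570-93229869 (minus strand), chr19:3929729-3930028 (minus), chr7:25816476-25816775 (minus) and chr7:25897408-25897707 (plus). For Cyp2s1 and Cyp2b10 that start is the outer end of the annotated gene. For Ces1e it lies 12 bases inside the gene, and for Aldh3b1 1120 bases inside, so the Aldh3b1 window is not that of the outermost start.
Ces1e: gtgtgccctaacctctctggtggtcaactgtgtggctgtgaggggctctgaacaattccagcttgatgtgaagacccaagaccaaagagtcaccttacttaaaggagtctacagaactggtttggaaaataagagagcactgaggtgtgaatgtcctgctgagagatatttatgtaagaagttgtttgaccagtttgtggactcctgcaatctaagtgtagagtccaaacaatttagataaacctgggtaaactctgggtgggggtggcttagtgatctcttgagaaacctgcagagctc
Aldh3b1: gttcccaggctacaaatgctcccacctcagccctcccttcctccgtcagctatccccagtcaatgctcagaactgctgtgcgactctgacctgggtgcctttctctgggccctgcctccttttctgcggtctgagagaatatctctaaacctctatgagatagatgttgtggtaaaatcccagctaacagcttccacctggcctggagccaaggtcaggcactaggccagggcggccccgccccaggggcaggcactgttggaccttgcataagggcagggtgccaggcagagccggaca
Cyp2s1: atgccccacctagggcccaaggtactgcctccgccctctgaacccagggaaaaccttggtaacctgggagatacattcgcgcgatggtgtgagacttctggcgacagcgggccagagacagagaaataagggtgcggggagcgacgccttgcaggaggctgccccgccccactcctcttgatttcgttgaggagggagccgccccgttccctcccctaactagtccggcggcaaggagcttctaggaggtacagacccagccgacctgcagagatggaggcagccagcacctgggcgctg
Cyp2b10: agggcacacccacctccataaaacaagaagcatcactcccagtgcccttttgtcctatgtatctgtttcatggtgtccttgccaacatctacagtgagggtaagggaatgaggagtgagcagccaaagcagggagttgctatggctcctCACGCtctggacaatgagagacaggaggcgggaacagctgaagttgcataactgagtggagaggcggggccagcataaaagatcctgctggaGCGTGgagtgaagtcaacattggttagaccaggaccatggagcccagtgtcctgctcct
Cyp2b10 held GCGTG at 2 places, whose first bases lie 101 and 9 bases before the start, and the other 3 held neither core. The promoter table matched 106 of the 136 members, and a gene listed with several starts was counted as holding a core if any of its windows did. One core or the other was present in 44.2% of the 43 tested members with a promoter, and in 46.7% of the promoters of all 27025 genes in the table. ACGTG was present in 25.6% and 21.8%, and GCGTG in 34.9% and 35.2%. Over all 106 members with a promoter, tested or not, the shares were lower, at 33% for either core, 17.9% for ACGTG and 24.5% for GCGTG. The tested members had passed a filter on level and the genes of the table had not, so these sets are unlike. Of the 8 members with an unadjusted p under 0.05, 6 had a promoter in the table, and Cyp2b10 was the 1 with a match. A match describes the letters of this window and is not a binding site.

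Among P450s of families 1 to 3, the main drug-metabolising families, 5 of 7 tested members lay lower in deficient tumours and 2 at an unadjusted p under 0.05. Cyp2b10, the mouse gene best known as a target of the nuclear receptor CAR, had a lowest, median and highest log2 level of 4.49, 10.36 and 12.18 in deficient tumours, against 10.33, 12.16 and 12.53 in controls. The groups overlapped, since 4 deficient arrays lay among the controls, while deficient 2, 3 and 6 lay below all of them, deficient 3 by far the most. Its difference was -2.23 (SE 0.92, 95% interval -4.19 to -0.26, limma adjusted p = 0.286). This probeset can match related transcripts, as its suffix marks, and the other 2 tested probesets of the gene differed by -2.20 and -2.45. Without deficient 3 and 6 the difference was -1.04, and with any 1 array left out it lay between -2.65 and -1.37. For this and the other members, a fit without deficient 1 and 5 together was not run.

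Cyp2s1, a P450 of epithelia outside the liver, ran from 6.81 over a median of 8.53 to 10.70 in deficient tumours, against 9.32, 10.93 and 11.69 in controls. Here 4 deficient arrays lay below every control, and deficient 3 was not among them. The difference was -1.84 (SE 0.63, limma adjusted p = 0.216), and without deficient 3 and 6 it was -1.73. Cyp2f2, the club cell P450 that activates naphthalene in mice, had levels of 10.54, 11.82 and 13.02 in deficient tumours, against 12.00, 12.50 and 12.67 in controls. Of the deficient arrays 5 lay below every control, while deficient 1 lay above every control. Its difference was -0.56 (SE 0.30, 95% interval -1.21 to 0.09, adjusted p = 0.411), or -0.30 without deficient 3 and 6. Cyp1b1, which oxidises polycyclic hydrocarbons and oestrogens, varied widely in both groups, with 4.57, 8.22 and 11.35 in deficient tumours, against 5.98, 6.49 and 10.47 in controls. Its difference of 0.88 (SE 0.91) had an interval from -1.07 to 2.84 and was 0.14 without deficient 3 and 6.

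In family 4, whose enzymes hydroxylate fatty acids, all 4 tested members lay lower, 3 of them by under 0.5. Cyp4b1, which in lung also activates furan toxins, had a lowest, median and highest level of 3.82, 8.11 and 10.87 in deficient tumours, against 8.31, 9.80 and 10.84 in controls. As with Cyp2b10, deficient 1 and 5 lay within or above the control range and deficient 3 and 6 lay furthest below it. The difference was -1.94 (SE 0.90, limma adjusted p = 0.337), or -0.71 without deficient 3 and 6. With any 1 array left out it lay between -2.47 and -1.29. Cyp4f13, Cyp4f16 and Cyp4v3 differed by -0.06, -0.15 and -0.02 (SE 0.20, 0.15 and 0.20), and for each the sign turned under at least 1 other setting. The 3 tested P450s of sterol breakdown lay lower without an unadjusted p under 0.05, with Cyp7b1 at -0.87 (SE 0.53), Cyp27a1 at -0.62 (SE 0.40) and Cyp39a1 at -0.36 (SE 0.29). Without deficient 3 and 6 their differences were -0.38, -0.16 and 0.05. Cyp27a1 lay close to the floor, with control levels of 3.82 and above.

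**Figure D2:**
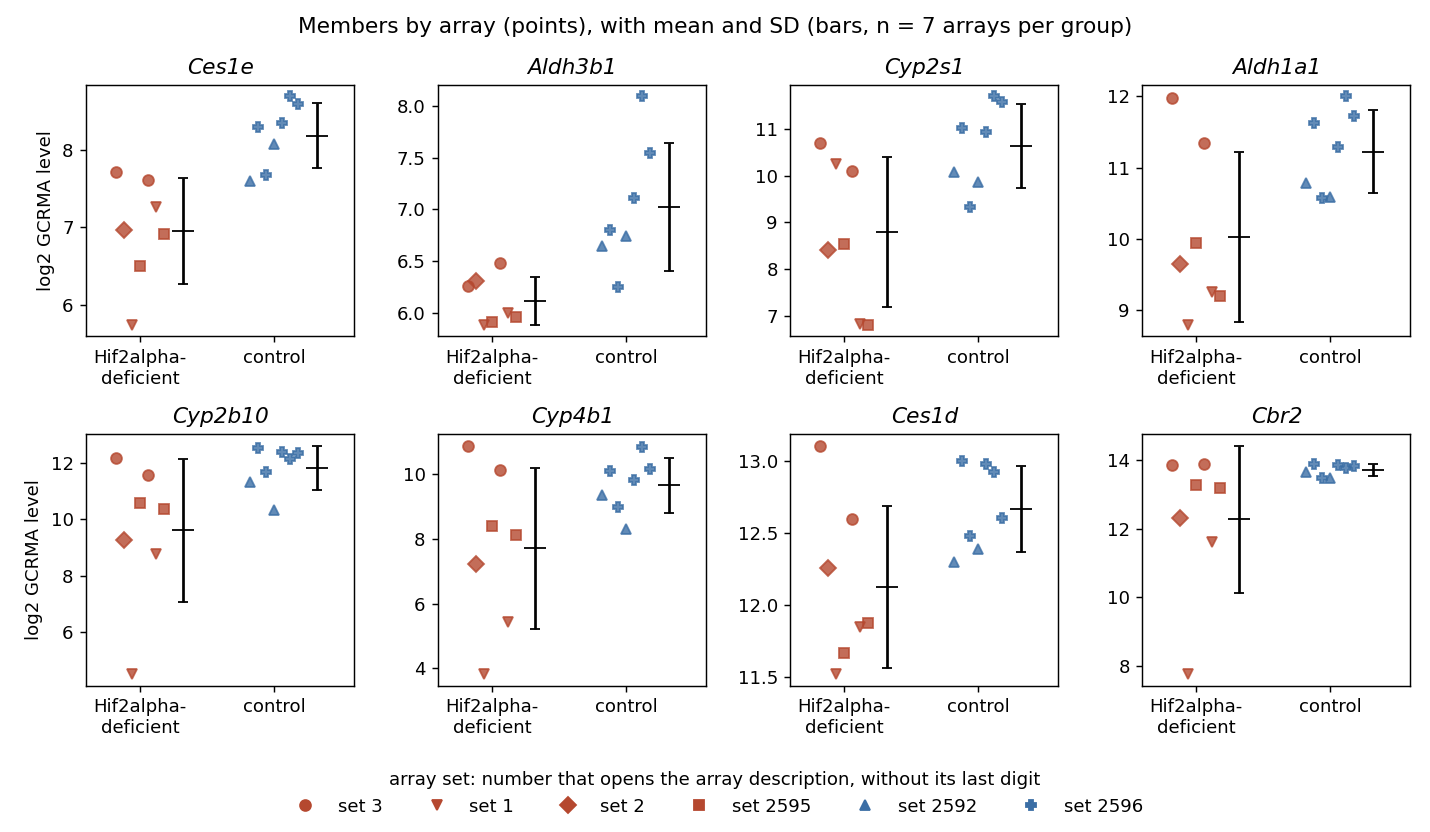
Log2 level of 8 members in each array (points, shaped by array set), with the group mean and SD (n = 7 arrays each) beside them. For Cyp2b10, Cyp4b1, Aldh1a1 and Cbr2 deficient 1 and 5 (circles) lie at control level and deficient 3 is the lowest array, while for Ces1e and Aldh3b1 all 7 deficient arrays lie below the control mean.

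The flavin monooxygenases, which oxidise nitrogen and sulfur atoms, were lower in all 3 tested members without an unadjusted p under 0.05. Fmo1 ran from 5.69 over 7.51 to 10.96 in deficient tumours, against 7.60, 9.42 and 10.02 in controls. Deficient 1 and 5 were its highest arrays of all 14 and deficient 6 its lowest. Its difference was -1.06 (SE 0.72, limma adjusted p = 0.528), or -0.26 without deficient 3 and 6. With any 1 array left out it lay between -1.53 and -0.65. Fmo2, the form known from lung, differed by -0.94 (SE 0.46, adjusted p = 0.368), by -0.68 in its other tested probeset, and by -1.04 without deficient 3 and 6. Fmo5 differed by -0.36 (SE 0.43), which became 0.15 without those arrays.

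Carboxylesterases hydrolyse ester drugs and lipids, and all 3 tested members lay lower. Ces1e had the smallest p of all members. Its lowest, median and highest levels were 5.74, 6.96 and 7.72 in deficient tumours, against 7.60, 8.29 and 8.69 in controls. All 7 deficient arrays lay below the control mean and 5 below every control, the other 2 being deficient 1 and 5. The means were 6.96 ± 0.68 in deficient tumours and 8.18 ± 0.42 in controls (SD, n = 7 each), a difference of -1.22 (SE 0.28, 2.34-fold lower, limma adjusted p = 0.126). It was -1.04 without deficient 3 and 6 and between -1.35 and -1.02 with any 1 array left out.

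Ces1d, a lung esterase that also splits triacylglycerol, had levels of 11.52, 11.88 and 13.11 in deficient tumours, against 12.30, 12.61 and 13.00 in controls. Of the deficient arrays 5 lay below every control, and deficient 1 above every control. The difference was -0.54 (SE 0.23, limma adjusted p = 0.296), and its other tested probesets differed by -0.39 and -1.09. Ces2g, near the floor, differed by -0.50 (SE 0.57) and by 0.07 without deficient 3 and 6. Ephx1, the microsomal epoxide hydrolase, differed by -0.38 (SE 0.22, adjusted p = 0.441), and by -0.16 without those arrays.

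Of the 11 tested aldehyde dehydrogenases 7 lay lower, 3 of them at an unadjusted p under 0.05. Aldh3b1, which oxidises aldehydes from lipid peroxidation, had levels of 5.89, 6.00 and 6.48 in deficient tumours, against 6.25, 6.80 and 8.09 in controls. The deficient arrays lay close together and all 7 were below the control mean, but 3 of them were within the control range. The difference was -0.91 (SE 0.24, 1.88-fold lower, limma adjusted p = 0.134, exact permutation p = 0.00233), or -0.84 without deficient 3 and 6. Aldh1a1, which makes retinoic acid, ran over 8.79, 9.64 and 11.98 in deficient tumours, against 10.57, 11.29 and 12.00 in controls. Deficient 1 and 5 lay at control level and the other 5 below every control. Its difference was -1.21 (SE 0.46, adjusted p = 0.252), or -0.81 without deficient 3 and 6.

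Aldh2, the mitochondrial enzyme that clears acetaldehyde, was lower by a small amount, with levels of 11.48, 11.59 and 11.91 in deficient tumours, against 11.54, 11.89 and 12.29 in controls. The ranges overlapped for most arrays. The difference was -0.25 (SE 0.12, limma adjusted p = 0.328), with -0.11 and -0.15 in its other tested probesets. The remaining 8 tested Aldh members differed by between -0.36 and 0.20. Aldh3a1, an aldehyde dehydrogenase of the cornea and airway, was above the floor in 2 deficient arrays and 4 controls and was therefore not tested. Its means were 3.12 ± 1.10 in deficient tumours and 4.55 ± 1.29 in controls.

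Cbr2, a carbonyl reductase of lung mitochondria, had levels of 7.75, 13.18 and 13.88 in deficient tumours, against 13.47, 13.78 and 13.90 in controls. The controls lay close together. Of the deficient arrays 5 lay below every control, while deficient 1 and 5 lay among them. The difference was -1.44 (SE 0.74, limma adjusted p = 0.388, p = 0.0332 by the exact permutation test). Leaving out deficient 3 alone gave -0.69, and leaving out deficient 3 and 6 gave -0.41. With any 1 array left out it lay between -1.71 and -0.69. Cbr1, Cbr3 and Cbr4 differed by -0.07, 0.39 and 0.05 (SE 0.23, 0.38 and 0.09), of which Cbr3 and Cbr4 turned to -0.04 and -0.02 without those 2 arrays.

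Of the 15 tested glutathione S-transferases 8 lay higher and 7 lower, with a median difference of 0.02 and 0 at an unadjusted p under 0.05 in either direction. Without deficient 3 and 6, 10 of the 15 lay lower, and Gsta3, an alpha-class member, had a difference of -0.87 with an unadjusted p under 0.05, against -0.40 over all arrays. No test compared the family with the oxidising enzymes. Gsta4, which conjugates the lipid peroxidation product hydroxynonenal, had levels of 12.30, 12.84 and 13.35 in deficient tumours, against 12.28, 12.65 and 12.84 in controls (difference 0.27, SE 0.16, limma adjusted p = 0.436). Gstt3, of the theta class, differed by 0.35 (SE 0.20, adjusted p = 0.422). Gstp1, the pi-class enzyme common in epithelia and tumours, had an interval of -0.20 to 0.27 around a difference of 0.03. Gsto1, of the omega class, differed by -0.03 (SE 0.42), and its sign turned under other settings. The mu-class genes Gstm1 and Gstm2 differed by -0.26 and -0.34 (SE 0.29 and 0.27), and Gstm1's probeset can match its near-identical relatives.

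The other conjugating families gave few measurements. No UDP-glucuronosyltransferase with a single-gene probeset exceeded the floor in any array. Sult1a1, the phenol sulfotransferase, was the only tested member of its family, with levels of 5.68, 8.41 and 8.72 in deficient tumours, against 7.26, 8.91 and 9.75 in controls. All 7 deficient arrays lay below the control mean, deficient 3 furthest. The difference was -0.78 (SE 0.46, limma adjusted p = 0.451), or -0.45 without deficient 3 and 6.

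The deficient arrays differed among themselves by array set, a comparison chosen after the values were seen and given as a description. In 18 of the 52 tested members, or 34.6%, the mean of deficient 1 and 5 lay more than 1 log2 unit above that of deficient 3 and 6, beside 9.79% of all tested probesets. These were Cyp2b10, Cyp2d22, Cyp2f2, Cyp2j6, Cyp2s1, Cyp4b1, Cyp27a1, Cyp39a1, Cyp7b1, Aldh1a1, Fmo1, Fmo5, Sult1a1, Ces1d, Ces1e, Ces2g, Ephx1 and Cbr2, with no Gst gene among them. The reverse held for 11 members, or 21.2%, beside 8.2% of all tested probesets. Those were Gsta3, Gstm1, Gstm4, Gstm5, Gsto1, Gstp3 and Gstt1 with Cyp1b1, Cyp3a13, Cbr1 and Cbr3.

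The set means show the size of these differences. Cyp4b1 averaged 4.62 in deficient 3 and 6, 7.23 in deficient 2, 8.25 in deficient 4 and 7 and 10.49 in deficient 1 and 5, against 8.83 in controls 1 and 4 and 9.98 in the other controls. Gstm5 ran the other way, with 8.78, 7.07, 6.43 and 6.22 in the same deficient sets, against 6.79 and 6.72 in the control sets. Ces1e had means of 6.50, 6.96, 6.70 and 7.67, against 7.83 and 8.32, so that each of the 4 deficient sets lay below both control sets. The same held for Aldh3b1, with 5.95, 6.31, 5.94 and 6.37, against 6.69 and 7.16. These are the members with the smallest p in the same data, so the order of their set means adds no support. Its share over all tested probesets was not counted. Deficient 3 held the lowest value of all 14 arrays in 18 members, or 34.6%, beside 14% of all tested probesets. The SD over 7 arrays was larger in deficient tumours for 73.1% of members, beside 69.4% of all tested probesets.

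**Figure D3:**
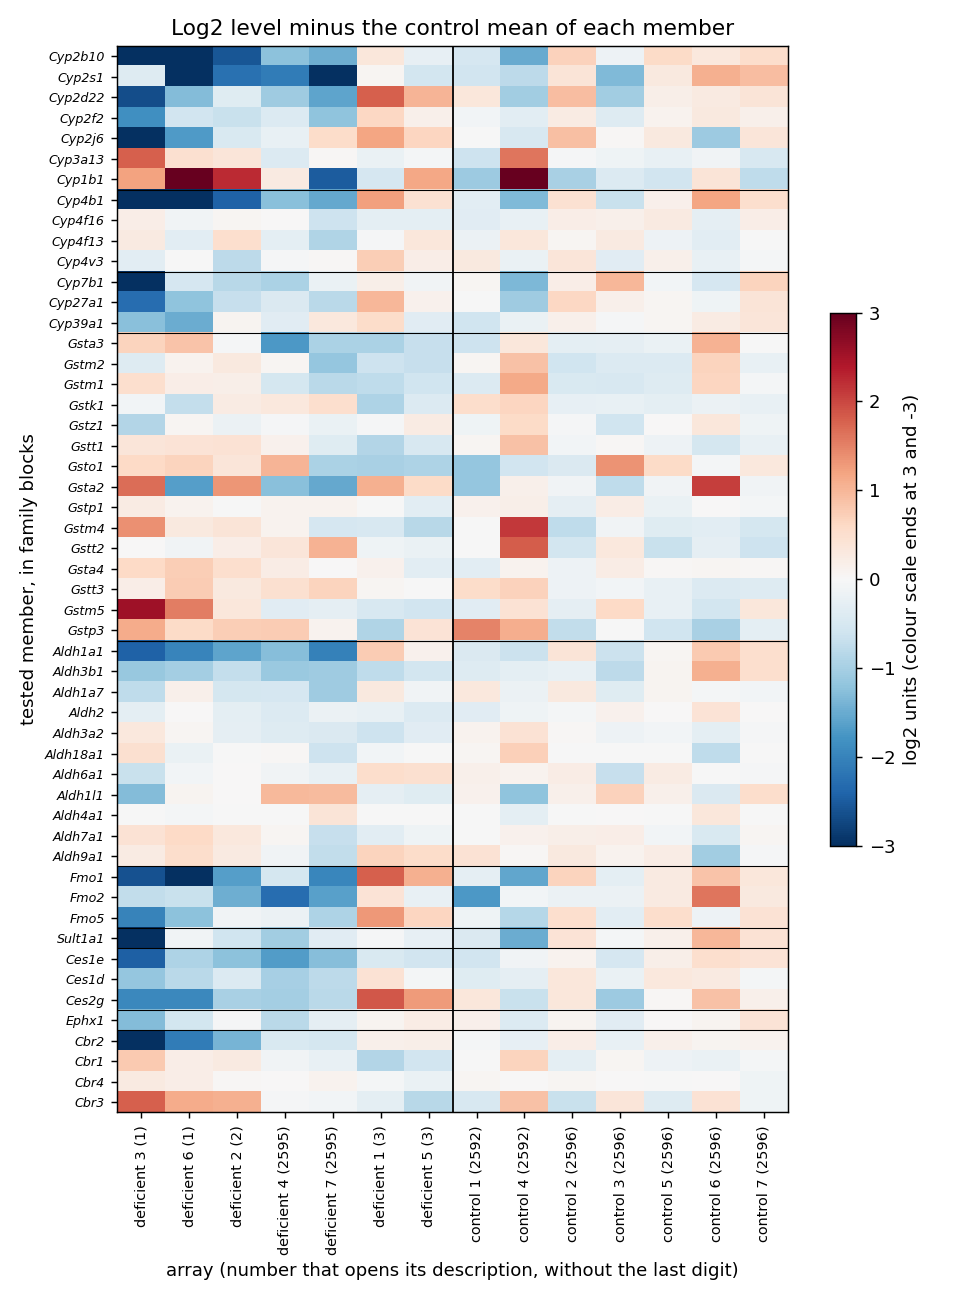
Each row is a tested member and each column an array, ordered within groups by array set (number in brackets), with colour giving the log2 level minus the control mean of that member. Rows such as Cyp2b10, Cyp4b1 and Fmo1 are blue (lower) in deficient 3 and 6 and near or above the control mean in deficient 1 and 5, whereas Gstm5 and Cbr3 are red (higher) in deficient 3 and 6.

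Markers of other cells moved with these members, and their part in the differences was not tested. All 10 endothelial markers passed the filter and all 10 lay lower, with 0 at an unadjusted p under 0.05. Their mean level was 5.89 in deficient 3, 6.11 in deficient 6, 7.46 in deficient 2, 8.03 in deficient 4, 8.09 in deficient 7, 9.06 in deficient 5 and 9.16 in deficient 1, against 7.71 to 8.96 in controls. Deficient 3 and 6 were thus lowest and deficient 1 and 5 highest, as for Cyp4b1 and Fmo1. The log2 of the summed endothelial levels ran from 10.29 to 13.49 in deficient arrays and from 11.72 to 13.04 in controls. Of the 8 alveolar type I markers 6 lay lower, 2 of them at an unadjusted p under 0.05 and 0 after adjustment. Those 2 were Igfbp2 at -2.76 and Rtkn2 at -1.50, or -1.59 and -0.49 without deficient 3 and 6. The 8 markers had a mean level of 8.70 in deficient 3 and 8.92 in deficient 6. They averaged at least 10.29 in the other deficient arrays and 10.34 to 11.15 in controls. Their summed level ran from 13.85 to 14.74 in deficient arrays and from 14.33 to 14.66 in controls.

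Of the 10 tested club and secretory markers 9 lay lower, all 9 at an unadjusted p under 0.05 and 0 after adjustment. Their mean level was 6.98 to 8.45 in deficient arrays and 7.85 to 11.23 in controls, and the log2 of their summed level 14.11 to 15.01 and 14.72 to 16.06. The list mean was low in deficient 1 and 5 too, at 7.80 and 6.98, although Cyp2f2, Cyp2b10 and Cbr2 were at or above control level there. Markers in the list did not move alike across arrays. Scgb3a2 was at 12.91 and 12.46 in deficient 1 and 5, 10.08 and 9.39 in deficient 3 and 6, and 11.74 to 13.32 in controls. Ltf was at 2.91 and 2.35 in deficient 1 and 5, 5.05 and 6.67 in deficient 3 and 6, and 6.10 to 13.24 in controls. Scgb1a1, the defining secretoglobin of club cells, differed by 0.06 (SE 0.11, limma adjusted p = 0.843). All 5 tested ciliated markers lay lower as well, all 5 at an unadjusted p under 0.05 and 0 after adjustment. Among deficient arrays their mean level was highest in deficient 1 and 5, at 7.98 and 7.47. It was lowest in deficient 3 and 6, at 4.89 and 4.85, and ran from 6.65 to 10.07 in controls. The summed level of these markers ran from 10.39 to 11.03 in deficient arrays and from 10.68 to 12.95 in controls. Of the 9 macrophage markers 8 lay lower, 2 of them at an unadjusted p under 0.05 (Adgre1 at -0.78 and Siglecf at -1.27), with a median of -0.42 and a summed level of 13.57 to 14.32 in deficient arrays and 13.81 to 14.51 in controls. Of the 7 tested fibroblast and smooth muscle markers 6 lay lower, 1 of them at an unadjusted p under 0.05, with a median of -0.41 and a summed level of 12.35 to 12.89 in deficient arrays and 12.26 to 13.33 in controls. Of the 11 alveolar type II markers 8 lay higher, with a summed level of 16.41 to 16.85 in deficient arrays and 16.53 to 16.71 in controls. In bulk tumours, fewer cells of a type and less RNA per cell cannot be told apart.

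**Figure D4:**
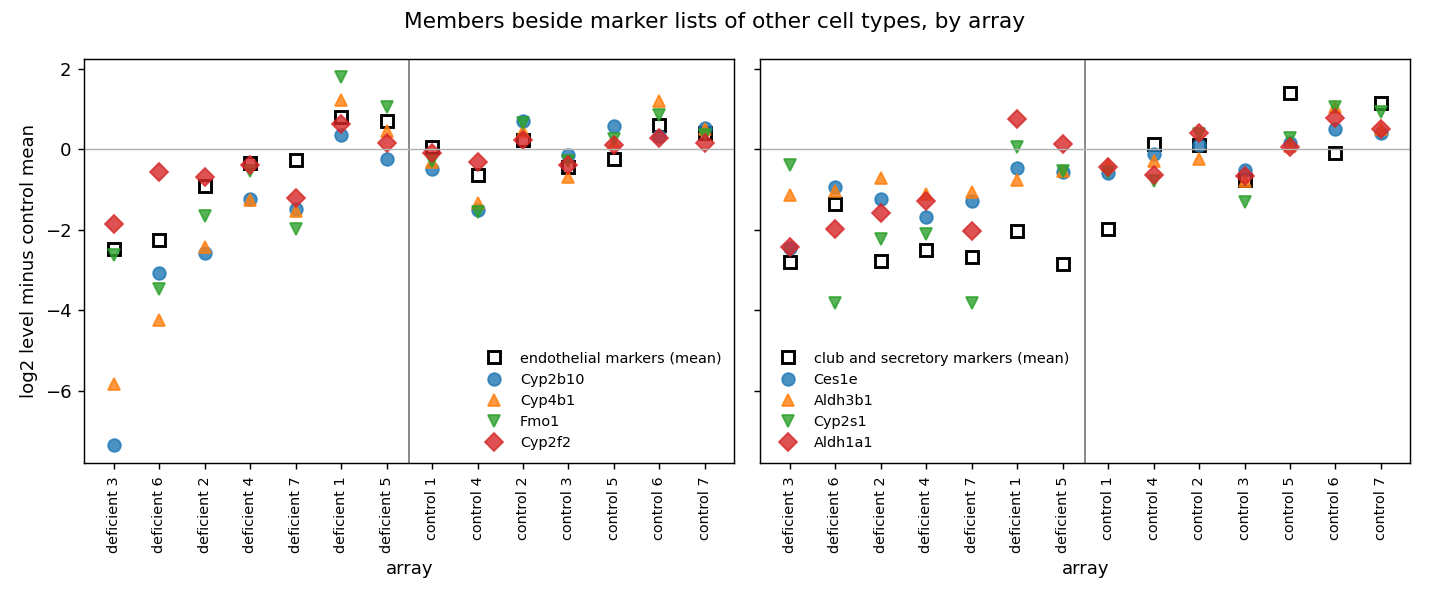
Log2 level minus the control mean in each array (x axis) for 4 members and the mean of the tested endothelial markers (left), and for 4 other members and the mean of the tested club and secretory markers (right). Cyp2b10, Cyp4b1 and Fmo1 are lowest in deficient 3 and 6, where the endothelial mean is lowest. Cyp2f2 is instead lowest in deficient 3 and 7. The mean of the club and secretory markers lies below its control mean in all 7 deficient arrays.

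The genes that serve these enzymes, taken from lists chosen with earlier results of these data known, gave 0 adjusted calls. Among 11 electron donors and haem genes 6 lay lower and 5 higher, with 1 at an unadjusted p under 0.05. That gene was Alas1, the rate-limiting enzyme of haem synthesis, with levels of 8.39, 9.27 and 10.24 in deficient tumours, against 10.15, 10.91 and 11.20 in controls. All 7 deficient arrays lay below the control mean, and the ranges met only at their ends. The difference was -1.28 (SE 0.30, limma adjusted p = 0.126), or -1.31 without deficient 3 and 6. Cyb5a, cytochrome b5, and Fdx1, the mitochondrial electron carrier, differed by -0.18 (SE 0.15) and -0.32 (SE 0.18).

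Of the 22 other conjugating and reducing enzymes tested 12 lay higher and 10 lower, 2 and 3 of them at an unadjusted p under 0.05. Pon1, a lactonase that also splits organophosphates, had levels of 3.39, 5.63 and 8.23 in deficient tumours, against 7.53, 8.95 and 9.53 in controls, and all 7 deficient arrays fell short of the control mean. Its difference was -2.69 (SE 0.69, limma adjusted p = 0.134), or -1.80 without deficient 3 and 6. Nat2, an arylamine acetyltransferase, differed by 0.51 (SE 0.17, adjusted p = 0.209), and all 7 deficient arrays lay above the control mean. Akr1a1, an aldehyde reductase, differed by 0.02 (SE 0.10).

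Of 11 genes that supply cofactors for conjugation 9 lay higher and 2 lower, with a median difference of 0.32. Papss1, which makes the sulfate donor, differed by 0.36 (SE 0.16, limma adjusted p = 0.328) and Gsr, which regenerates glutathione, by 0.04 (SE 0.14). Ggt5, a cleaver of glutathione conjugates, was under the control mean in each of the 7 deficient arrays (difference -1.09, SE 0.39, adjusted p = 0.232), and at -0.66 without deficient 3 and 6. Of 8 tested receptors and regulators 6 lay lower and 0 had an unadjusted p under 0.05. Tiparp, a target of the aryl hydrocarbon receptor, differed by -0.29 (SE 0.16), Rxra by -0.43 (SE 0.26) and Nfe2l2, which encodes NRF2, by 0.15 (SE 0.16). Arnt and the xenobiotic receptors Nr1i2 and Nr1i3 never exceeded the floor. Among 7 tested transporters 3 lay higher and 4 lower, again with 0 at an unadjusted p under 0.05. Slco3a1 differed by -1.22 (SE 0.73) but by -0.13 without deficient 3 and 6, Abcb1a by -0.44 (SE 0.37; -0.19 without those arrays) and Slco2a1 by 0.14 (SE 0.22).

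There were 19 members that exceeded the floor in some arrays but in fewer than 7, and they are given as values only. Ces1f was above it in 1 deficient array and 4 controls, with at most 4.57 in deficient tumours and 7.69 in controls. Ces1g was above it in 0 deficient arrays and 2 controls. In the other direction Aldh1a2, which makes retinoic acid, was above it in 3 deficient arrays and 1 control, and Sult2b1, which sulfates cholesterol, in 4 and 1. Ephx2, the soluble epoxide hydrolase, had 4.29 ± 1.50 in deficient tumours and 3.64 ± 1.31 in controls, with 3 and 2 arrays above the floor.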

How the data were processed

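Expression was measured on Affymetrix arrays in 7 Hif2alpha-deficient and 7 control tumour samples. Per the submitters' processing notes, the authors ran GCRMA, and what they deposited is on a log2 scale. Its version was not given in the sources used here. Of the 22690 probesets 64 controls were dropped, and 12701 with a value above 4 in at least 7 arrays were tested. 43.86% of values lay under 4. Groups were taken from the titles and compared with limma 3.58.1 (R 4.3.3; lmFit, eBayes, 1 group term, two-sided), with Benjamini-Hochberg adjustment over all tested probesets. On data simulated from these means and spreads, 73% of probesets changed by 1 log2 unit and 96% of those changed by 2 were recovered among 12701. The simulated arrays were independent, with 1 pooled SD per probeset for both groups. The real arrays correlated within array sets (0.3492), so these shares do not state what could be recovered from them. For arrays, their number limits the precision; the median SE over tested members was 0.30. Single genes were also compared by an exact permutation test.

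Members and lists were chosen with earlier results of these data known. Named genes follow a rule: up to 8 members with the widest difference in each direction at an unadjusted p under 0.05, the 3 smallest p and the highest mean in each family, the 3 widest SDs in each group, a list of lung enzymes, and 3 genes per partner list. Other members named for a count or a pattern were chosen after their values were seen. Same-numbered arrays of the groups did not deviate together (correlations -0.226 to 0.223, above 0.1 in 2 of 7 pairs). They were treated as unpaired, although such correlations cannot exclude a pairing with a small effect. Alternatives covered the filter, scaling, variance model, array weights, blocks, probeset choice and arrays left out.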

Additional observations from a re-analysis of the deposited data

Results flagged for a closer look

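Among the 32 named and tested members, 64 groups of 7 arrays were checked for a single array far from the others, and 5 were singled out. The limit used singles out about 1 in 20 groups when these are independent and picked without regard to spread. That rate does not apply here, since the members share arrays and Cbr2, Cyp1b1 and Gsta2 were named for a wide SD. In 3 cases the array was deficient 3 and the lowest of its group. Cbr2 read 7.75 there, against 11.62 in the next deficient array, Cyp7b1 read 2.78 against 5.55, and Sult1a1 read 5.68 against 7.70. Among controls, Cyp1b1 read 10.47 in control 4, against 7.45 in the next array, and Gsta2 read 6.58 in control 6, against 4.65.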

How the results depend on the processing

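Under the main settings 0 members passed an adjusted p of 0.05 or 0.1 (limma). The adjusted count at 0.05 stayed 0 in every alternative fit except array weights, which gave 11 members. With array weights 6 members were higher and 20 lower at an unadjusted p under 0.05. Beside them, 4106 of all 12701 tested probesets had such a p in either direction. Signs turned there for Gstm1 (0.08), Gstm2 (0.19), Gsto1 (0.23), Gsta2 (-0.02) and Cyp4f13 (0.02), and the cause was not tested. The count of 8 lower members became 5 with arrays centred on their medians (and 1 higher), 2 with a random block for the array set (Ces1e and Aldh3b1), 4 without deficient 2 and 4, and 6 without deficient 3 and 6, of which 4 were shared. Any 1 array left out gave 4 to 13 lower and 0 to 1 higher members, 0 past the adjusted threshold and a median of -0.24 to -0.17. The count was 4 without control 2, 5 without control 5, control 6 or deficient 4, and 13 without deficient 1. The higher count was 1 without control 1, control 4 or deficient 5, beside 1792, 2383 and 1903 of all tested probesets in either direction. With no filter the median was 0.00, since members at the floor enter. The replicate block kept 0 adjusted calls, 8 lower members (7 shared) and the median of -0.20. 

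Signs of small differences turned for Cyp4f13 with centred medians (0.02) and quantile normalisation (0.03), Cyp4f16 with the mean of all probesets (0.02), Cyp4v3 with centred medians (0.06) and without deficient 2 and 4 (0.13), and Gsto1 with centred medians (0.05), the random block (0.15) and the mean of all probesets (0.09). Without deficient 3 and 6 they turned for Cbr3 (-0.04), Cbr4 (-0.02), Ces2g (0.07), Cyp39a1 (0.05), Cyp4v3 (0.03), Fmo5 (0.15) and Gstp1 (-0.03). With 1 array left out, differences ran from -0.15 to 0.08 for Cyp4f13, -0.15 to 0.10 for Cyp4v3, -0.25 to 0.37 for Gsta2, -0.23 to 0.19 for Gsto1 and -0.02 to 0.09 for Gstp1. Of 825 values of named members under alternatives, 773 kept direction and side of the adjusted threshold of 0.05. Another 11 newly passed it and 41 turned sign. Since 0 members passed it in the main fit, none could fall back across it. These counts therefore do not describe how stable the calls at an unadjusted p under 0.05 were. Levels near 4 limit Cyp27a1, Ces2g, Fmo5 and Gsta2.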
